A study of Mus musculus with 2 samples.

Results

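The genes described here are 10 genes for chemokines, macrophage growth factors and interleukins: the chemokine genes Ccl2, Ccl7, Cxcl1, Cxcl10, Cxcl12 and Cx3cl1, the macrophage growth factor genes Csf1 and Il34, and the interleukin genes Il6 and Il33. They were chosen by gene symbol, each matched 1 row, and they are 10 of the 55323 rows of the table. RNA came from TgS1 cells, labelled as a Schwann cell line with the genotype TTR V30M tg, that is, mouse cells with a transgene for the V30M variant of transthyretin, whose promoter the labels do not name. One culture had been kept for a long time in SCM, an abbreviation left unexplained in the labels. The other had been kept for a long time in DMEM, a standard basal medium. Both libraries share the cell line and the transgene. Each medium is represented by 1 library, so the differences below have not been checked against replicates and carry no p-values.

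After nerve injury, Schwann cells, the glia that wrap peripheral axons, release chemokines and growth factors, and macrophages that enter the nerve help to clear myelin. CCL2 and CCL7 are CC chemokines that attract monocytes through the receptor CCR2. CXCL1 acts on neutrophils through CXCR2, CXCL10 on T cells through CXCR3 and CXCL12 on many cell types through CXCR4, and CX3CL1 (fractalkine) is a membrane-anchored chemokine for CX3CR1. CSF1 and IL-34 are unrelated in sequence but share the receptor CSF1R, on which macrophages depend. IL-6 signals through IL-6 receptor and gp130, and IL-33 is a nuclear alarmin that signals, once released, through ST2 and its partner IL-1RAcP.

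The chemokine classes are named for the spacing of the first cysteines of the mature protein, shown here because it is the feature that sorts 6 of the genes into 3 families. Below are stretches of the coding sequence from the GENCODE M21 transcripts (build GRCm38), 5′ to 3′, with the codons of the first pair of cysteines in capitals. The codons are adjacent in the CC genes, 1 codon apart in the CXC genes and 3 codons apart in Cx3cl1. Each pair was located by searching for the spacing of the gene's own class, so it illustrates the classes and tests nothing.
Ccl2: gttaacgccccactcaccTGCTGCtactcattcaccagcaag
Ccl7: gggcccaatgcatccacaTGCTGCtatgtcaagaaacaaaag
Cxcl1: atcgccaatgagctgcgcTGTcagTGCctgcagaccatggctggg
Cxcl10: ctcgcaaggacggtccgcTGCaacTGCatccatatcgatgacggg
Cxcl12: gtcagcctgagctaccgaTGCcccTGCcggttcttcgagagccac
Cx3cl1: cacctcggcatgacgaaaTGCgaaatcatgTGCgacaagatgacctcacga

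Levels are in FPKM, reads scaled by gene length and by the library's assigned reads, which allows genes of different length to be compared. The SCM library held 36666676 assigned reads and the DMEM library 29085791. A gene with 0 reads was assigned an upper limit of 3 reads, which for a gene of 1 kb is 0.0818 FPKM in SCM and 0.103 FPKM in DMEM. Intervals are 95% exact intervals on the reads (Poisson for a level, Clopper-Pearson for a ratio). They treat every read as a separate count and leave out variation between cultures, since each medium has 1 library. Amplified reads that carry no molecular identifier cannot be counted as separate molecules. Where such reads are present, the counting error is larger than the intervals show. A gene was called measured at 1 FPKM or more in 1 or both libraries, and called higher or lower at 2-fold on the scale of log2((FPKM in SCM + 1) / (FPKM in DMEM + 1)), which understates the ratio of low genes.

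The 2 CCR2 ligands were lower in SCM, and the macrophage growth factor gene Csf1 was higher. Of the 10 genes, 4 were measured (Ccl2, Ccl7, Csf1 and Il34), 3 had reads but stayed under 1 FPKM (Il33, Cxcl10 and Cxcl1) and 3 had no read in either library (Cxcl12, Cx3cl1 and Il6). Of the 4 measured genes, 1 was called higher and 2 lower. Over all 12334 measured rows, 5.89% were called, 3.1% higher and 2.8% lower, with a median log2 ratio of -0.03. The 4 measured genes had a median of -0.69. The rows split into 382 higher and 345 lower. A separate run on protein-coding rows alone, with levels rescaled to the reads of those rows, gave 259 higher and 148 lower. These were 2.55% and 1.46% of the 10169 rows tested. With 4 genes and 1 library per medium, these shares describe the genes and test nothing.

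**Figure D1:**
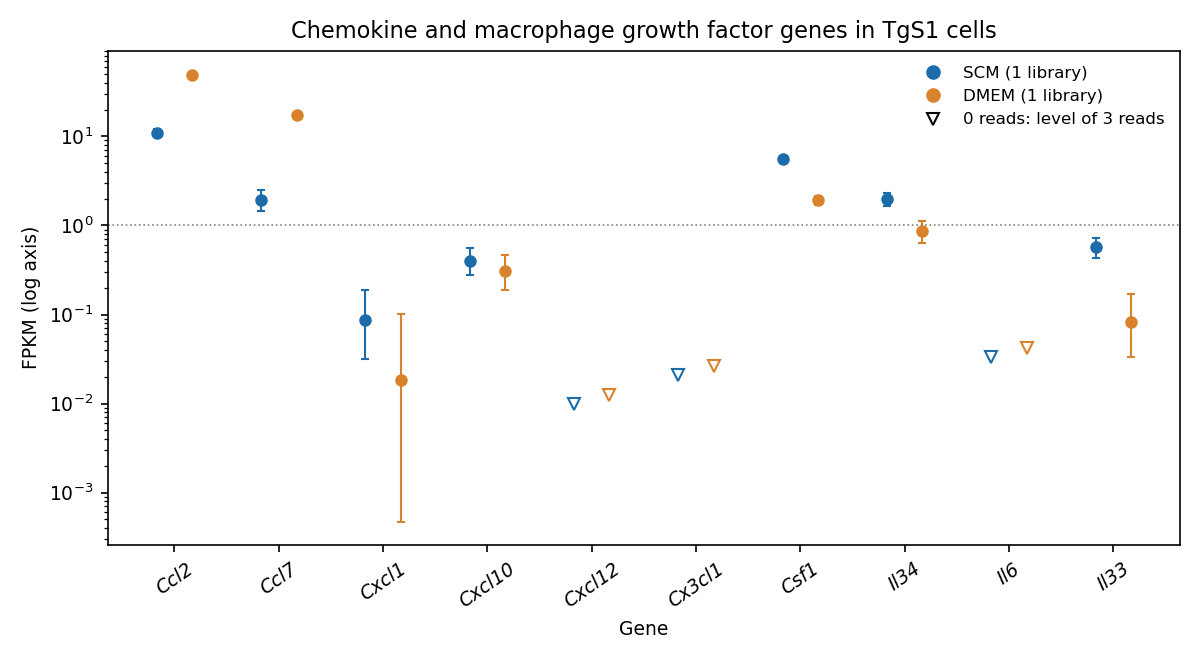
FPKM of each of the 10 genes (log axis) in the SCM and DMEM libraries, with 95% Poisson intervals of the read count; open triangles stand at the level of 3 reads for a gene with 0 reads, and the dotted line is 1 FPKM. Ccl2 and Ccl7 lie lower in SCM (11.02 and 1.94 FPKM) than in DMEM (48.8 and 17.2 FPKM), Csf1, Il34 and Il33 lie higher in SCM, and Cxcl12, Cx3cl1 and Il6 have triangles in both.

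Ccl2, the main monocyte chemoattractant gene (ENSMUSG00000035385, chr11:82035571-82037453, plus strand, GRCm38), had 11.02 FPKM (460 reads) in SCM and 48.8 FPKM (1616 reads) in DMEM. It was the most abundant of the 10 genes in both libraries, and 4.43-fold lower in SCM (95% counting interval 3.99 to 4.92). Its place among all rows was 3851 in SCM and 726 in DMEM. Of the 12334 measured rows, 22 had a lower log2 ratio than its -2.05.

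Ccl7, a second CCR2 ligand gene (ENSMUSG00000035373, chr11:82045712-82047525, plus strand), had 1.94 FPKM (57 reads) in SCM and 17.2 FPKM (401 reads) in DMEM. That is 8.87-fold lower in SCM (6.71 to 11.9), and 6 measured rows had a lower log2 ratio than its -2.63. The counting intervals of the Ccl2 and Ccl7 ratios did not overlap. The FPKM of Ccl2 was 5.68 times that of Ccl7 in SCM and 2.84 times in DMEM.

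Ccl2 and Ccl7 are neighbours, with 8258 bases between them, in a cluster of CC chemokine genes. The other cluster genes looked at were nearly silent, but what reads they had were all in DMEM. Ccl8 had 0 reads in SCM and 7 in DMEM, with a 95% counting interval that starts at 1.82-fold lower in SCM. Ccl11, an eosinophil chemokine gene, had 0 reads in SCM and 2 in DMEM, Ccl12 had 0 and 1, and Ccl1 had no read in either. These cluster genes are related in sequence. The longest run of identical bases between GENCODE transcripts was 23 bases for Ccl2 and Ccl7, 20 for Ccl2 and Ccl11, and 17 for Ccl7 and Ccl8. It was 12 for Ccl2 and Ccl8, and 25 for Cxcl1 and Ccl9, which are of different chemokine classes. Such runs alone therefore do not set the cluster apart.

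**Figure D2:**
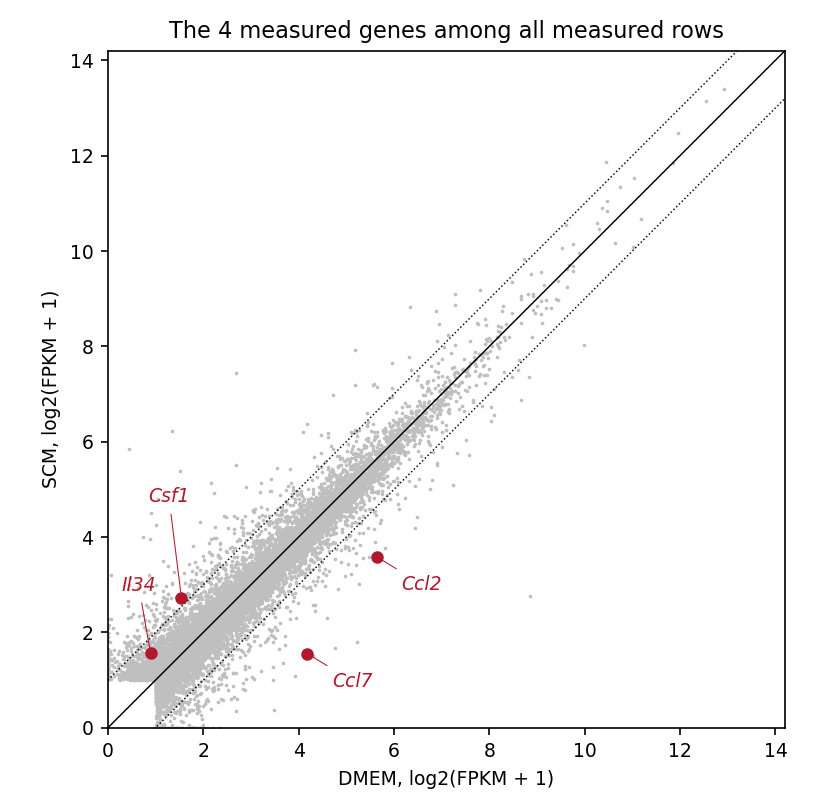
Levels of the 12334 measured rows (grey) as log2(FPKM + 1), SCM on the vertical axis and DMEM on the horizontal, with the 4 measured genes in red; the solid line marks equal levels and the dotted lines 2-fold. Ccl2 and Ccl7 lie below the lower dotted line, at log2 ratios of -2.05 and -2.63, Csf1 just above the upper one at 1.19, and Il34 between them at 0.67.

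The CXC chemokine genes and fractalkine had few or no reads. Cxcl10, the interferon-inducible T cell chemokine gene (ENSMUSG00000034855, chr5:92346638-92348889, minus strand), had 0.400 FPKM (33 reads) in SCM and 0.305 FPKM (20 reads) in DMEM. Its ratio of 1.31 had an interval from 0.729 to 2.41, so no difference was detectable at this depth. Cxcl1, the neutrophil chemokine gene (ENSMUSG00000029380, chr5:90891241-90893115, plus strand), had 6 reads in SCM and 1 in DMEM, a ratio of 4.76 with an interval from 0.577 to 219. These counts are too few to give a direction. Cxcl2, a relative of Cxcl1 in the same cluster, had 0 reads in SCM and 4 in DMEM.

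No read was assigned to Cxcl12 or Cx3cl1 in either library. Cxcl12, the stromal chemokine gene (chr6:117168535-117181367, plus strand), has a row of 8176 bases, the longest of the 10. Its 0 reads therefore limit it to 0.01001 FPKM in SCM and 0.0126 FPKM in DMEM. For Cx3cl1 (chr8:94772009-94782427, plus strand) the limits were 0.0208 FPKM in SCM and 0.0262 FPKM in DMEM.

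Both ligands of CSF1R lay higher in SCM. Csf1, the macrophage colony-stimulating factor gene (ENSMUSG00000014599, chr3:107741048-107760469, minus strand), had 5.63 FPKM (1090 reads) in SCM and 1.91 FPKM (294 reads) in DMEM. It was 2.94-fold higher in SCM (2.58 to 3.36), with a log2 ratio of 1.19 that 252 of the 12334 measured rows exceeded. With a pseudocount of 3 FPKM in place of 1, its log2 ratio was 0.81 and it was no longer past 2-fold.

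Il34, the second CSF1R ligand gene (ENSMUSG00000031750, chr8:110741829-110805924, minus strand), had 1.96 FPKM (141 reads) in SCM and 0.860 FPKM (49 reads) in DMEM. The plain ratio was 2.28 (1.64 to 3.23), but the log2 ratio with the pseudocount was 0.67, so it was not called. By the plain ratio, past 2-fold with an interval that excludes 1, all 4 measured genes were called, Csf1 and Il34 higher and Ccl2 and Ccl7 lower. Of all measured rows, 9.4% met that rule, 4.95% higher and 4.46% lower. Csf1 stood at 2.87 times the FPKM of Il34 in SCM and 2.23 times in DMEM.

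The make-up of the summed level of the 10 genes differed between the libraries. The sum was 21.6 FPKM in SCM and 69.2 FPKM in DMEM. Ccl2 and Ccl7 made up 60.0% of it in SCM and 95.4% in DMEM, and Csf1 and Il34 made up 35.1% in SCM and 4.01% in DMEM. Set against each other, the CCR2 ligands exceeded the CSF1R ligands 1.71 times in summed FPKM in SCM and 23.8 times in DMEM. In SCM the order of levels was Ccl2, Csf1, Il34, Ccl7, Il33, Cxcl10 and Cxcl1, and the intervals of Il34 (1.65 to 2.32 FPKM) and Ccl7 (1.47 to 2.51 FPKM) overlapped, as did those of Il33 and Cxcl10. In DMEM the order was Ccl2, Ccl7, Csf1, Il34, Cxcl10, Il33 and Cxcl1, with overlap between Il33 and Cxcl1 alone among neighbours.

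**Figure D3:**
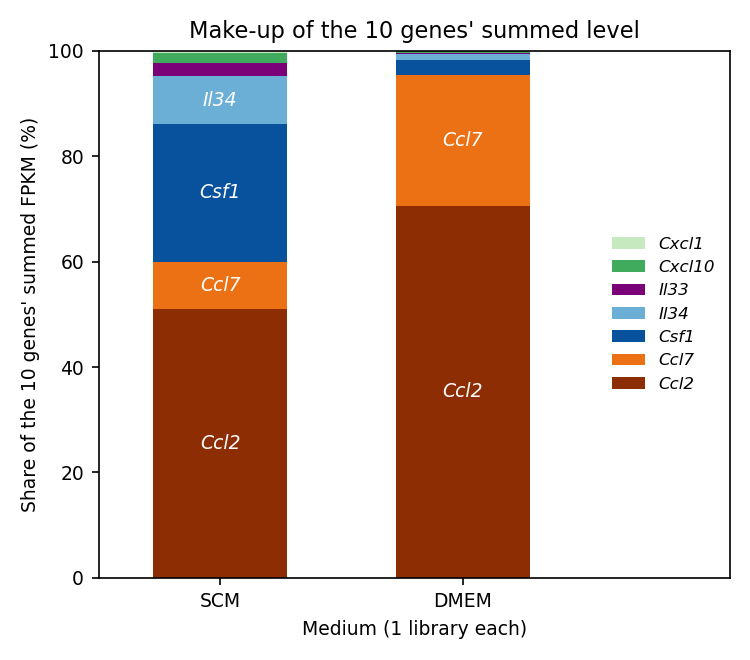
Share of the summed FPKM of the 10 genes taken by each gene with reads, in the SCM library and the DMEM library. Ccl2 takes 51.0% in SCM and 70.5% in DMEM, Ccl7 8.98% and 24.9%, Csf1 26.0% and 2.77%, and Il34 9.08% and 1.24%.

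The interleukin genes were low or silent. Il33 (ENSMUSG00000024810, chr19:29925114-29960718, plus strand) had 0.567 FPKM (60 reads) in SCM and 0.0834 FPKM (7 reads) in DMEM. It stayed under 1 FPKM in both libraries and so was not open to a call by either rule. Its plain ratio was 6.80 (3.105 to 17.6), past 2-fold with an interval that excludes 1, and the highest among the genes with at least 7 reads in each library. Il6, the inflammatory cytokine gene (chr5:30013114-30019981, plus strand), had no read in either library, which limits it to 0.0337 FPKM in SCM and 0.0425 FPKM in DMEM.

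Most receptors of these signals had few or no reads. Of 21 receptor genes looked at, 5 were measured, and 14 had at most 3 reads in each library. No read fell on Ccr1, Ccr2, Ccr3, Cxcr1, Cxcr2, Cxcr3, Cxcr4, Cx3cr1 or the decoy receptor genes Ackr1 and Ackr2 in either library. Single reads in SCM, and none in DMEM, fell on Ackr4 and Ccrl2. Csf1r, the receptor gene for Csf1 and Il34, had 0 reads in SCM and 5 in DMEM, and the ST2 gene Il1rl1 had 0 and 2. The Csf1r row overlaps Hmgxb3 and the Ackr4 row overlaps Acad11, so their few reads may be shared. Ackr3, a scavenging receptor gene for CXCL12, had 0 reads in SCM and 18 in DMEM (0.185 FPKM), with a 95% counting interval that starts at 5.54-fold lower in SCM.

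Among the 5 measured receptor genes, 2 were called higher in SCM and 0 lower, with a median log2 ratio of 0.65. Ptprz1, a receptor phosphatase gene whose product also binds IL-34, had 6.57 FPKM (3431 reads) in SCM and 0.338 FPKM (140 reads) in DMEM, 19.4-fold higher (16.4 to 23.2). Il1rap, which encodes the partner of ST2, had 9.56 FPKM in SCM and 3.78 FPKM in DMEM, 2.53-fold higher (2.37 to 2.697). The other 3 lay within 2-fold. The IL-6 receptor gene Il6ra had 8.75 FPKM in SCM and 5.21 FPKM in DMEM, the gp130 gene Il6st 30.4 and 27.3 FPKM, and the syndecan gene Sdc1 22.0 and 32.9 FPKM. Il6 itself, whose receptor chains these first 2 encode, had no read.

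**Figure D4:**
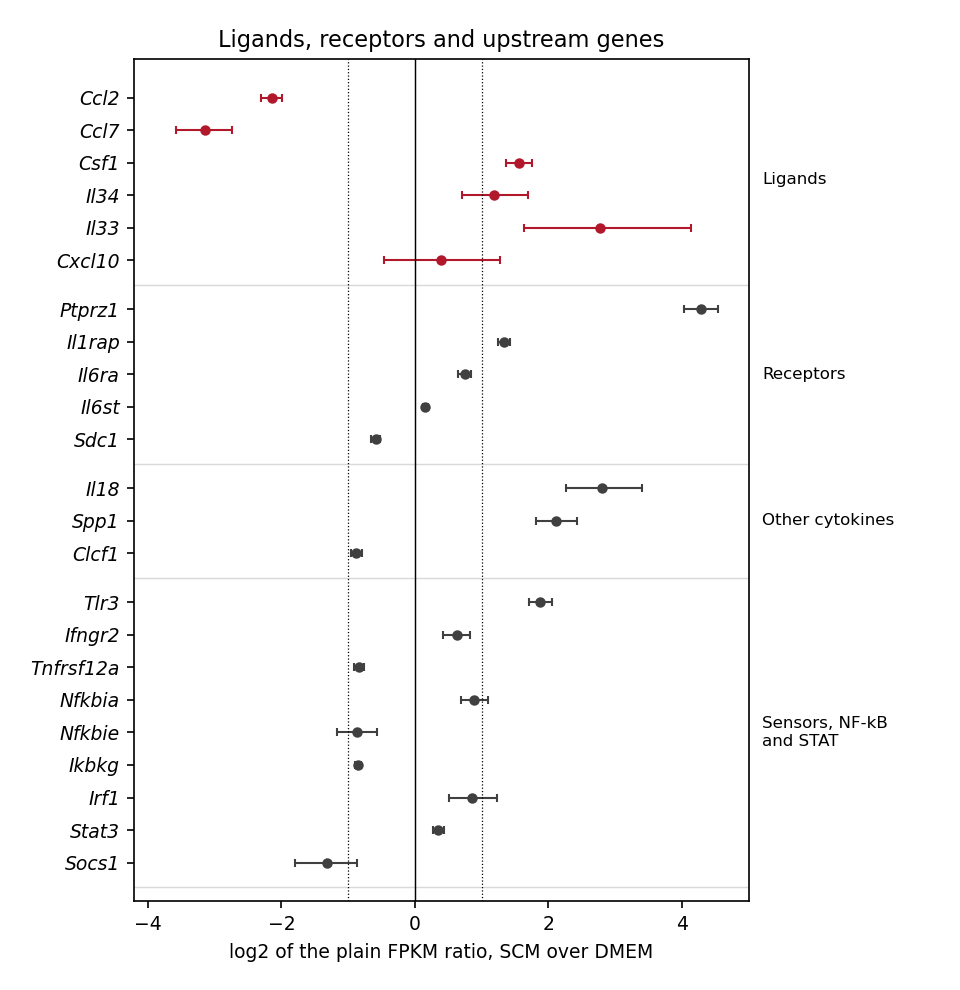
Plain FPKM ratio of SCM over DMEM (log2 axis) with 95% counting intervals for the genes of interest with at least 7 reads in each library (red) and for measured receptor, cytokine and upstream genes (dark grey); dotted lines mark 2-fold. Ccl2 and Ccl7 lie left of the dotted line at -1 with their intervals; Ptprz1 lies farthest right, at a ratio of 19.4, and the points of Nfkbia, Nfkbie and Ikbkg lie inside the dotted lines.

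Other chemokine genes gave little signal. Of 32 further ligand genes, 24 had no read in either library and 1 was measured. That gene was Ccl25, a thymic and gut chemokine gene, with 2.14 FPKM in SCM and 1.99 FPKM in DMEM. Its row overlaps Elavl1, and no source used here gives the strand setting of the counting, so the rows may share reads.

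Of 29 other cytokine and growth factor genes of myeloid cells, 8 were measured, 2 were called higher and 0 lower, and their median log2 ratio was -0.24. Il18, an inflammasome cytokine of the same family as Il33, had 7.01 FPKM (265 reads) in SCM and 1.0004 FPKM (30 reads) in DMEM, 7.01-fold higher (4.79 to 10.6). Spp1, the osteopontin gene, had 9.75 FPKM in SCM and 2.25 FPKM in DMEM, 4.33-fold higher (3.52 to 5.36). Clcf1, a cytokine gene of the gp130 family, had 13.8 and 25.3 FPKM in SCM and DMEM, within 2-fold.

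Of 9 genes for proteases that shed or cut such signals, 6 were measured and 0 were called, with a median log2 ratio of 0.12. Casp1, the caspase gene that matures IL-18, had 68.5 FPKM in SCM and 36.6 FPKM in DMEM, a ratio of 1.87 (1.79 to 1.95). The sheddase gene Adam17, whose row overlaps Iah1, had 12.02 FPKM in SCM and 8.89 FPKM in DMEM. Mmp14, a membrane metalloprotease gene, had 60.7 FPKM in SCM and 75.9 FPKM in DMEM.

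NF-kB is a driver of inflammatory transcription. Of the 19 genes of NF-kB subunits and inhibitors, 14 were measured and 0 were called in either direction, with a median log2 ratio of -0.12. Nfkbia, an inhibitor gene that NF-kB itself induces, had 11.96 FPKM in SCM and 6.45 FPKM in DMEM, a ratio of 1.85 (1.62 to 2.13). Nfkbie, a related inhibitor gene, lay the other way, with 1.44 FPKM in SCM and 2.63 FPKM in DMEM. Ikbkg, the kinase scaffold gene, had 22.8 and 41.2 FPKM, but its row overlaps G6pdx and reads may be shared. Among the 5 genes of the list under 1 FPKM, 2 had counting intervals above 1. All 5 are named after their values were seen. Bcl3, an atypical inhibitor family gene, had 32 reads in SCM and 1 in DMEM, a ratio of 25.4 (4.24 to 1034). Traf1, an adaptor gene, had 13 reads in SCM and 1 in DMEM, a ratio of 10.3 (1.55 to 438). The rest had more reads and intervals that included 1. The ratio was 1.21 for Birc3 (0.827 to 1.77), 1.20 for Tnfaip3 (0.779 to 1.87) and 0.966 for Map3k14 (0.787 to 1.19).

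Of 14 inflammatory and interferon receptor and adaptor genes, 11 were measured, 1 was called higher and 0 lower, with a median log2 ratio of 0.24. The called gene was Tlr3, a sensor of double-stranded RNA, with 8.78 FPKM in SCM and 2.38 FPKM in DMEM, 3.68-fold higher (3.28 to 4.14). Tnfrsf12a, the TWEAK receptor gene, had 33.5 and 59.6 FPKM in SCM and DMEM, and the interferon gamma receptor gene Ifngr2 4.34 and 2.81 FPKM. Within the STAT and IRF list, 9 of 12 genes were measured and 0 called, with a median of 0.28. Socs1, a feedback inhibitor gene, had 0.563 FPKM in SCM and 1.41 FPKM in DMEM, Irf1 1.51 and 0.830 FPKM, and Stat3, whose row overlaps Stat5a, 8.18 and 6.42 FPKM.

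All 10 genes of the list of factors that control the stability or translation of cytokine mRNAs were measured and 0 were called, with a median log2 ratio of 0.02. Zfp36l1, a gene of the tristetraprolin family of decay factors, came closest to the limit, with 15.2 FPKM in SCM and 7.70 FPKM in DMEM, a ratio of 1.97 (1.80 to 2.16). The RNA-binding protein genes Hnrnpd and Elavl1 had 15.7 and 11.7 FPKM in SCM, against 19.8 and 13.9 FPKM in DMEM.

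Promoter windows of 250 bases before to 50 after the transcription start (RefSeq, GRCm38.p6) were read for 7 of the 10 genes, with 2 windows for Il33. Ccl2, Ccl7 and Il34 were not analysed here. The search covered both strands for a kappaB-like motif (GGG, any 2 bases, TT, any base, CC), an AP-1 motif (TGANTCA), an ISRE-like motif (GAAA, any 2 bases, GAAA) and an ATF4-type motif (TGATGNAA). The kappaB-like motif was found in the windows of Csf1, Cxcl1, Cxcl10 and Il6, 4 of 8 windows, against 4.79% of the 32851 windows in the table. AP-1 letters were found in 2 of the 8 (Il6 and Cxcl10) and in 7.81% of all windows, ISRE-like letters in 1 (Cxcl10) and in 3.44%, and ATF4-type letters in 0 and in 3.97%. A match describes letters and not a bound site.

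The Csf1 window is printed because Csf1 is the called gene that has one, and the Cxcl10 window because it holds 3 of the 4 motifs. For Il6 and Cxcl1, stretches around the kappaB-like letters are enough to compare them. Capitals mark the motif letters, on either strand. In the Cxcl1 stretch they mark only the match that starts at -71 relative to the transcription start. The end of a second match, which starts at -89, is left in lower case at the head of that stretch. Csf1 lies at chr3:107760420-107760719 on the minus strand, Cxcl10 at chr5:92348840-92349139 on the minus strand, and the stretches of Il6 and Cxcl1 come from chr5:30012864-30013163 and chr5:90890995-90891294, both on the plus strand.
Csf1: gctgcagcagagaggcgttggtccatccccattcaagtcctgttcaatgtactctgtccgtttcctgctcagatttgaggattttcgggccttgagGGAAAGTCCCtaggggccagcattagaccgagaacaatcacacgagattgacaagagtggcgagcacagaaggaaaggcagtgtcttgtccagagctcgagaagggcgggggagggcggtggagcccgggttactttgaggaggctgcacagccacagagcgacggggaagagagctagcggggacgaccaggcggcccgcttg
Cxcl10: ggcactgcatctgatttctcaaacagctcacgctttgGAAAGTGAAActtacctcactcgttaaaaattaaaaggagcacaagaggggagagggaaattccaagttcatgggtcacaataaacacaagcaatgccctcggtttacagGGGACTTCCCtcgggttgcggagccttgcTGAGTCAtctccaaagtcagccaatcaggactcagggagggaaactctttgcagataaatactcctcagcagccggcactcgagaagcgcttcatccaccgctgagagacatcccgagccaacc
Il6: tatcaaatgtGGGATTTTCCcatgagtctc
Cxcl1: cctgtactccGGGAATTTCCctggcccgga

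The 4 genes with kappaB-like letters did not share a level. Csf1 was measured and higher in SCM, Cxcl10 and Cxcl1 had at most 33 reads in a library, and Il6 had none. In the Csf1 window the letters start at position -154 relative to the transcription start and read on the strand opposite to the gene. Those of Cxcl10 start at -103 and those of Il6 at -44, both on the strand of the gene, and Cxcl1 holds a pair, at -89 and -71. Motifs of different kinds did not share bases in these windows.

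The libraries carried the Schwann cell markers and almost none of the macrophage markers. All 10 Schwann cell markers were measured, summing to 3483 FPKM in SCM and 3521 FPKM in DMEM, and 2 were called higher, among them Ncam1 (3.26-fold higher by plain ratio, in a row that overlaps Gm11149). Of 14 macrophage markers, 8 had a read in 1 or both libraries and 1 was measured, the lysosomal gene Cd68 at 1.45 FPKM in SCM and 1.34 FPKM in DMEM. The summed level of the list was 1.71 FPKM in SCM and 1.60 FPKM in DMEM, and Adgre1, C1qa, C1qb, Cx3cr1, Mrc1 and Tyrobp had no read in either. The defining macrophage markers were at or near 0 in both libraries.

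Other cell type lists were mixed. Of 9 fibroblast markers, 3 were measured and their list summed to 58.5 FPKM in SCM and 128 FPKM in DMEM, ranging from 0 to 44.6 FPKM in SCM and from 0 to 119 FPKM in DMEM. Col1a1 and Lum had no read in either library, Postn had 44.6 FPKM in SCM and 119 FPKM in DMEM, Col1a2 3.15 and 0.742 FPKM, and Pdgfrb 10.6 and 7.86 FPKM. The lower sum in SCM rested on Postn, since the other measured markers of the list, Col1a2 and Pdgfrb, were higher in SCM. The part of fibroblast-like cells in the difference of Ccl2 and Ccl7 was not tested. Endothelial markers had 1 of 6 measured, Flt1 at 8.89 FPKM in SCM and 3.71 FPKM in DMEM, with Cdh5, Emcn and Kdr at 0 reads in both. Mast cell markers had 1 of 5 measured, Kit at 2.56 FPKM in SCM and 2.95 FPKM in DMEM, and T cell markers 0 of 5, with 0 reads in SCM and 3 in DMEM. In bulk RNA, fewer cells of a type and less RNA per cell cannot be told apart.

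**Figure D5:**
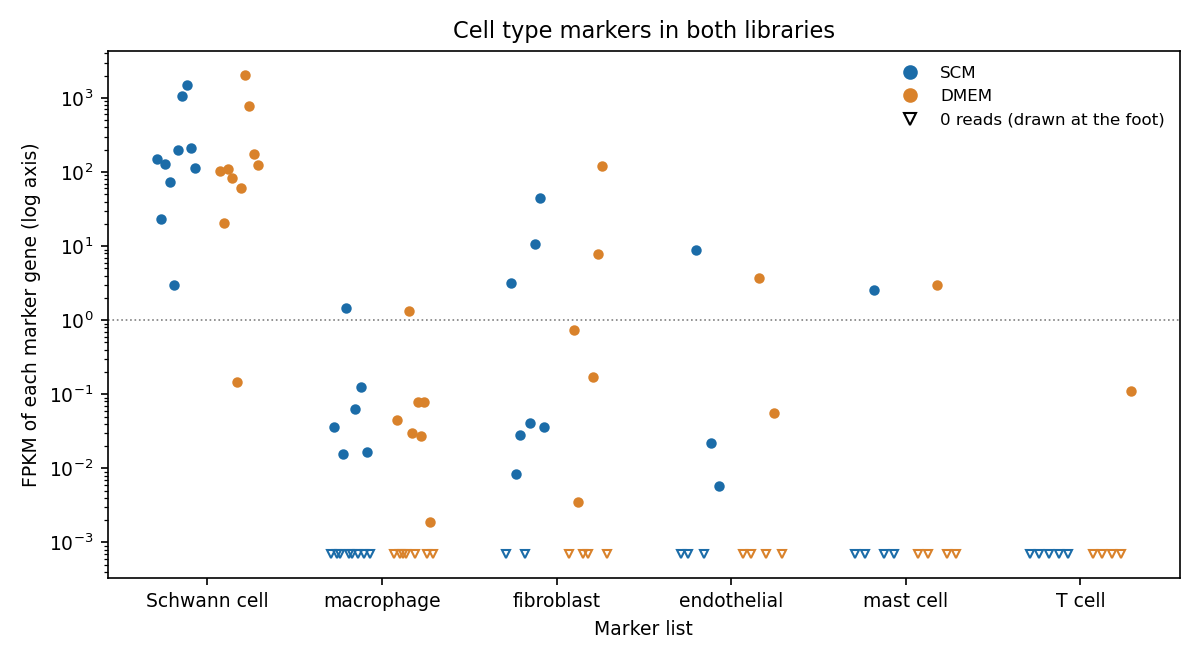
FPKM of each marker gene (log axis) by marker list, SCM left and DMEM right within a list; open triangles at the foot are genes with 0 reads, and the dotted line is 1 FPKM. All 10 Schwann cell markers are measured, whereas 1 of 14 macrophage markers, Cd68 at 1.45 FPKM in SCM and 1.34 FPKM in DMEM, lies above the dotted line.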

How the data were processed

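Per the labels' protocols, libraries were prepared from TgS1 total RNA with SMARTer stranded and DNBSEQ conversion kits. The authors deposited FPKM values with gene lengths for 55323 rows. STAR 2.7.9a, featureCounts 2.0.1, cutadapt 3.1, Trimmomatic 0.39 and Trim Galore are listed in the submitters' processing notes, with the builds mm10 and GRCm38.p6. No source used here gives their roles, parameters or strand setting. Columns were matched to samples by the medium in their names. No value column was left unused.

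The products of FPKM and length in kilobases added up to 1000000 per library, and 100% of rows were within 0.01 of a whole number of reads, so reads were recovered for intervals. No count model was fitted, since each medium has 1 library. Gene coordinates in the table mostly differ from GENCODE M21 (1457 of 52046 matched identifiers share a position), so those printed come from GENCODE M21 by identifier, and promoters from RefSeq.

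The 10 genes, the lists, the motifs and the rule for named genes (all 10, all receptors, and up to 3 measured genes per list with the largest absolute log2 ratio) were chosen with earlier results of these data known. Ccl8, Ccl11, Ccl12, Ccl1, Cxcl2 and the markers at 0 were named after their values were seen. None of the 10 genes' rows overlaps another measured row (0 of 10). Alternatives changed the pseudocount, filter, scaling, unit, row set and threshold. Python 3.11.15, pandas 2.3.3 and scipy 1.17.1 were used, and the steps were tested on simulated reads. Values of some listed receptor and marker genes are not reported here.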

Additional observations from a re-analysis of the deposited data

How the results depend on the processing

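Ccl2 and Ccl7 were called lower under every alternative run. Of the 10 genes, 1 was called higher as reported (Csf1). A pseudocount of 3 FPKM called 0 higher. Csf1 and Il34, that is 2, were called with a pseudocount of 0.1 FPKM, at 1.5-fold and by the plain FPKM ratio with a counting interval. TPM computed from the FPKM values gave 2, Csf1 and Il33. In TPM 6 of the 10 genes passed the filter on low values, against 4 in the main run, where Il33 did not pass. The plain ratio with at least 10 reads and no FPKM filter, added after the values were seen, gave 3, Csf1, Il34 and Il33. The other alternatives gave Csf1 alone. Among all rows, the main run called 382 higher and 345 lower (3.1% and 2.8% of 12334 rows). A pseudocount of 0.1 FPKM gave 681 and 625 (5.52% and 5.07%), and one of 3 FPKM 148 and 131 (1.20% and 1.06%). The filter of 5 FPKM gave 210 and 165 (3.01% and 2.36% of 6979 rows). In TPM, 1011 and 1145 were called (6.09% and 6.90% of 16603 rows). At 1.5-fold it was 974 and 928 (7.90% and 7.52%), and by the plain ratio 610 and 550 (4.95% and 4.46%). The added rule gave 1351 and 1124 (8.22% and 6.84% of 16431 rows). Protein-coding rows alone, with levels rescaled to the reads of those rows, gave 259 and 148 (2.55% and 1.46% of 10169 rows). The causes were not tested. Across 5 changes of pseudocount, scaling, unit and row set, the log2 ratio ran from -2.18 to -1.89 for Ccl2, from -3.08 to -2.03 for Ccl7, from 0.81 to 1.51 for Csf1, from 0.36 to 1.10 for Il34 and from 0.21 to 1.86 for Il33. No paired analysis was possible because there was 1 library per medium. Counting noise limits Cxcl1, Cxcl10 and Il33, and without replicates the variation between cultures is unknown.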

Other observations

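Terms in the annotation column of the deposited table, looked at after the values were seen, cover more secreted signals. Of 41 rows annotated with chemokine activity, 28 had no read in either library, 4 were measured, 0 were called higher and 2 lower, Ccl2 and Ccl7. Of 207 rows with cytokine activity, 34 were measured, 5 called higher and 3 lower, with a median log2 ratio of -0.08. Beside Csf1, Spp1 and Il18, the higher rows were Cmtm5, at 9.49 FPKM in SCM and 1.39 FPKM in DMEM, 6.82-fold higher (5.06 to 9.36), and Ndp, the norrin gene, at 7.31 and 2.94 FPKM. Beside Ccl2 and Ccl7, the lower row was the protease gene Bmp1, at 10.2 FPKM in SCM and 21.3 FPKM in DMEM. Of 147 rows with growth factor activity, 45 were measured, 2 called higher and 5 lower, with a median log2 ratio of 0.05. The higher rows were Csf1 and Igf1, and the lower rows were Gdnf, Fgf5, Prl2c2, Btc and Bmp1. Gdnf had 11.02 FPKM in SCM and 43.8 FPKM in DMEM, and Fgf5 8.35 and 33.3 FPKM. Prl2c2, a prolactin-family gene with close copies in the mouse genome whose reads may be shared, had 3.93 FPKM in SCM and 14.4 FPKM in DMEM.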
